A study of Homo sapiens with 6 samples.

Results

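The genes described here are 10 components and response genes of bone morphogenetic protein (BMP) and transforming growth factor beta (TGF-beta) signalling: ID1, ID2, ID3, SMAD3, SMAD4, SMAD6, SMAD7, BMP4, BAMBI and TGFB1. They were taken by gene symbol from a table of 12793 rows, and all 10 were in it. The table gives RNA levels in 6 libraries of the established colorectal cancer line HCT15, of human origin. Of these, 3 libraries carried a control guide and the genotype label WT, and 3 were labelled RBM15 knockout, made with CRISPR/Cas9; the latter are called knockout-labelled below. RBM15 binds RNA and helps guide the enzymes that place the m6A mark, and the comparison asked what its loss did inside the tumour cells. The labels do not say whether the edited cells were 1 clone or a mixed population, nor whether libraries of a group are separate cultures, and p-values then measure only a spread between libraries that may be technical.

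BMPs and TGF-beta are secreted ligands that bind pairs of receptor kinases at the cell surface. BMP receptors phosphorylate SMAD1, SMAD5 and SMAD9, TGF-beta and activin receptors phosphorylate SMAD2 and SMAD3, and both branches join SMAD4 to act on genes in the nucleus. ID1, ID2 and ID3 are classical BMP-induced genes whose proteins bind E proteins and keep them off DNA, while SMAD6, SMAD7 and BAMBI are induced inhibitors that feed back on the pathway. In the intestine BMP signals are known for limiting stem cell activity along the crypt axis, and loss of this pathway, SMAD4 included, is frequent in colorectal cancer.

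The first feature shown is the DNA at the start of the genes with lower values, since SMAD complexes bind GC-rich and CAGAC letters. Each window runs from 250 bases before to 50 bases after a RefSeq start of the gene on GRCh38.p14, where all 10 genes had an entry. That start can lie inside the gene span given below, as for ID2, whose span begins at 8678845. Other starts of a gene were not searched. Capitals mark the letters GGCGCC, the core SMAD motif CAGAC and the palindrome made of GTCTAGAC, searched on either strand, and matches did not overlap each other. The windows of ID1 (chr20:31605039-31605338, plus strand), ID2 (chr2:8681806-8682105, plus strand), ID3 (chr1:23559452-23559751, minus strand), BAMBI (chr10:28677271-28677570, plus strand) and SMAD6 (chr15:66701986-66702285, plus strand) read as follows.
ID1: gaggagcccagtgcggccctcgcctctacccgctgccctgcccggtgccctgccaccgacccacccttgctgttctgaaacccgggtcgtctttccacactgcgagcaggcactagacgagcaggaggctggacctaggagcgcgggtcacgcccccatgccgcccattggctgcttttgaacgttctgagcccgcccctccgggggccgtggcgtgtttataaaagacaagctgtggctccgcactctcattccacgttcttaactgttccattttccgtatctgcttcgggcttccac
ID2: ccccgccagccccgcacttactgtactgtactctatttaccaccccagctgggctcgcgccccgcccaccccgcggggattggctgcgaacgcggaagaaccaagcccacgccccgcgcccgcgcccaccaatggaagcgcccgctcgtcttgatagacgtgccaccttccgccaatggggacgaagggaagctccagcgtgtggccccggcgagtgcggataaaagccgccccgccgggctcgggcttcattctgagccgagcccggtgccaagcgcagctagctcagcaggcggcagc
ID3: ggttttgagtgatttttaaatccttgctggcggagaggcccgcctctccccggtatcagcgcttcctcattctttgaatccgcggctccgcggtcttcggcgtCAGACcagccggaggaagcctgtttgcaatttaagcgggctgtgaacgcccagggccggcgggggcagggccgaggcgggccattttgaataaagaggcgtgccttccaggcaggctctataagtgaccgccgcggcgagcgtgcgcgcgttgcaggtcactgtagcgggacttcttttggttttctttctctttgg
BAMBI: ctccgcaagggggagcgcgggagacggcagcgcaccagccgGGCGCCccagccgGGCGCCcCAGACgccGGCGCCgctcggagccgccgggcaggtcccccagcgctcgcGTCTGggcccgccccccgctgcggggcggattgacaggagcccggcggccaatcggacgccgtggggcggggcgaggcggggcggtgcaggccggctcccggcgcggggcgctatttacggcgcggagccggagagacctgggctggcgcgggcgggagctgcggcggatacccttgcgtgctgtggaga
SMAD6: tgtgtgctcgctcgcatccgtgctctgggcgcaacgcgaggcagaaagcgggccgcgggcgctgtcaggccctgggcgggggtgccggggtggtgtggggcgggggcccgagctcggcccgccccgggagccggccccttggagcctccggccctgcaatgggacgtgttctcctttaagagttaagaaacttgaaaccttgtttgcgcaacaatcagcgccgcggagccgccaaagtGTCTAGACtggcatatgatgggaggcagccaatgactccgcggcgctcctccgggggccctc

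GGCGCC was present in 4 of the 10 windows (BAMBI, BMP4, SMAD3 and SMAD4) and in 19.2% of 35116 windows of this length. Those 4 windows were 80%, 66%, 80.3% and 66.7% GC, against a median of 58.7% over all windows. The shares of all windows were not matched for GC content. BAMBI held 3 matches, which began 209, 196 and 181 bases before the start. CAGAC was present in 5 of the 10 windows (ID3, BAMBI, SMAD3, SMAD7 and BMP4) and in 45.3% of all windows. The palindrome GTCTAGAC was found in SMAD6 alone of the 10 windows, beginning 12 bases before the start, and 0.202% of all windows held it. The BMP response element was in 0 of the 10 windows and in 0.473% of all. ID1 and ID2 held 0 matches to any of the 4 patterns. A match describes letters and is not a measured binding site, and more distant DNA was not searched.

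RBM15, the targeted gene, was higher in the knockout-labelled libraries, at 17.3, 18.5 and 18.03 FPKM against 5.97, 5.89 and 5.51 FPKM in control libraries 1 to 3 (log2 difference 1.48, limma adjusted p = 3.88e-06). A Cas9 cut need not lower an mRNA, so this neither bears out nor contradicts the label, and every direction below rests on the labels alone and would turn if they were exchanged. A gene that "rose" was higher, and one that "fell" lower, in the knockout-labelled libraries. FPKM are fragments scaled by transcript length and by mapped total, and the column sums lay between 402288 and 415057 FPKM. Read totals could not be recovered, and depth is therefore unknown. Of 11451 genes that averaged at least 1 FPKM, 6245 passed at an adjusted p of 0.05, which is 54.5%. Of 8 colon epithelial markers tested, 6 fell and 1 rose, and the gene that rose was KRT8 (0.11 on the log2 scale). The largest differences were those of VIL1, which encodes the microvillus protein villin (16.8 to 17.2 FPKM across the controls against 3.69 to 4.12 FPKM), CDH17, an intestinal cadherin gene (4.94 to 5.43 against 1.49 to 1.83 FPKM), and the intestinal transcription factor gene CDX2 (20.8 to 21.1 against 9.28 to 9.78 FPKM). Their log2 differences were -1.89, -1.26 and -1.06. The sum of the 8, carried mainly by KRT8 and KRT18, was 3808 to 3902 FPKM across the controls against 3483 to 3623 FPKM across the knockout-labelled libraries. The epithelial adhesion gene EPCAM (523 to 534 FPKM across the controls against 412 to 419 FPKM) also fell, and KRT20, CDX1 and LGALS4 of the 11 listed were not analysed here. Of the endothelial markers 0 of 4 could be analysed here, of the fibroblast markers 2 of 8 (COL1A1 and ACTA2) and of the leukocyte markers 1 of 6 (CD68). CD68, also a lysosomal protein gene, rose from a range of 2.66 to 3.08 FPKM to 6.03 to 7.29 FPKM. Their part in the results below was not tested.

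Of the 10 genes, 9 were abundant enough to be tested, and 7 of these passed: ID1, ID2, ID3 and BAMBI fell, and BMP4, SMAD3 and TGFB1 rose. SMAD4 and SMAD7 did not pass, and SMAD6 lay below the filter. The share of all tested genes that passed was 54.5%, with 25.3% higher and 29.2% lower, so a count of 7 in 9 is to be read against a table in which more genes passed than did not. The values of the groups did not overlap for 7 of the 9 tested genes, against 63% of all tested genes (29.6% with the knockout-labelled libraries higher and 33.4% with them lower); here 3 were higher and 4 lower. The median log2 difference of the 9 genes was -0.11, and that of all tested genes was -0.018. The decreases that passed ran from -0.77 to -0.38 on the log2(FPKM + 1) scale, and the increases that passed from 0.17 to 0.25. This order of sizes was not kept once a trend over GC content and transcript length was removed from each library. ID3 was then -0.26, TGFB1 0.32 and BMP4 0.31.

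**Figure D1:**
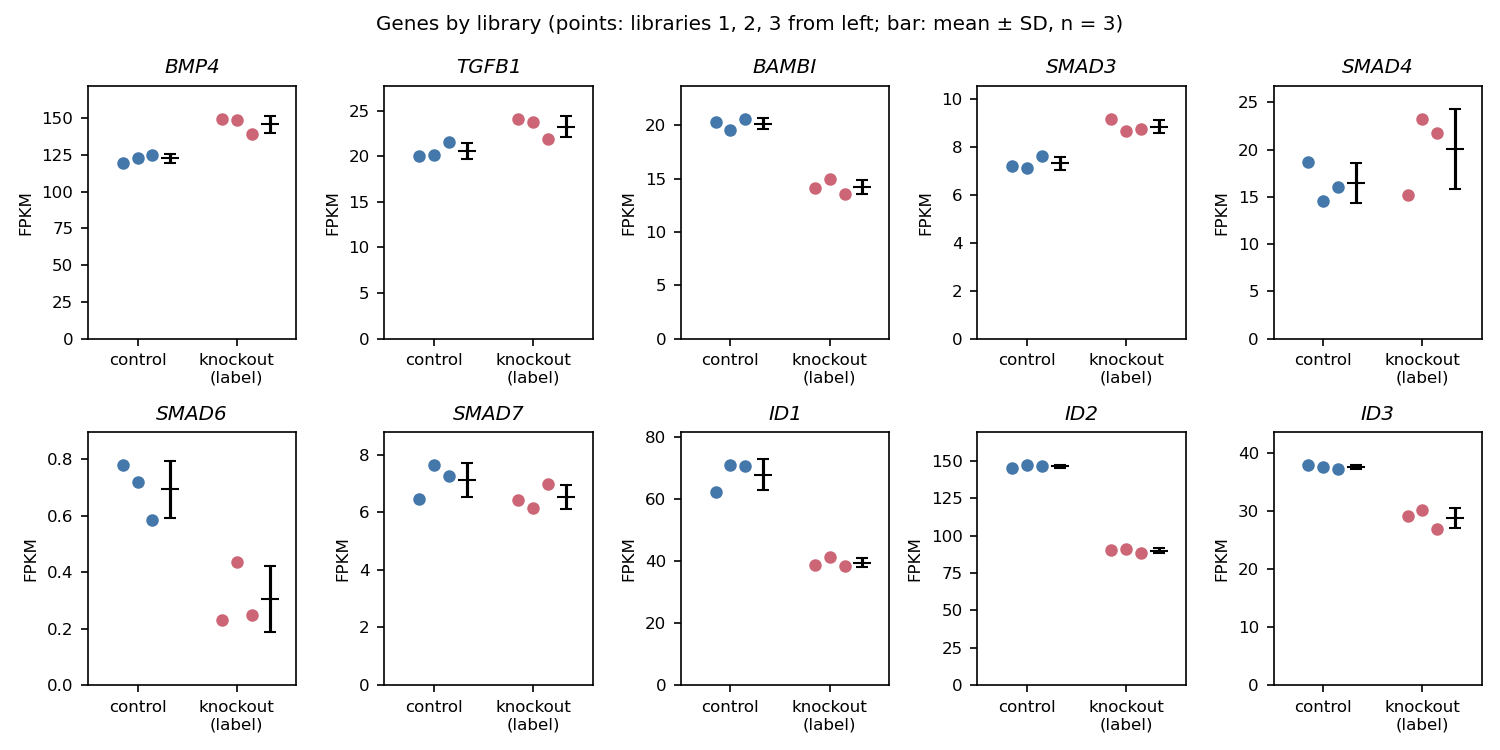
Level of each of the 10 genes in FPKM on axes that start at 0, with 1 point per library (replicates 1, 2 and 3 from left to right) and a bar for the mean ± SD of 3 libraries. ID2 stood between 145 and 147 FPKM across the controls against a range of 88.2 to 91.2 FPKM across the knockout-labelled libraries, while the points of SMAD4 and SMAD7 overlap between groups.

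ID2, the most abundant of the ID genes, stood at 145, 147 and 147 FPKM across controls 1 to 3 against 90.7, 91.2 and 88.2 FPKM across the knockout-labelled libraries. The 2 groups lay far apart relative to the spread within each, with means of 146.5 ± 1.01 and 90.03 ± 1.64 FPKM (SD, n = 3). Its difference in log2(FPKM + 1) was -0.70 (SE 0.027, limma adjusted p = 6.36e-06), and 4.51% of tested genes had a lower difference. In bulk RNA, fewer cells with a transcript and less of it per cell cannot be told apart. ID2 (ENSG00000115738) spans 8678845 to 8684453 on chromosome 2 (plus strand, GRCh38), and 38 bp of its exons overlap the antisense gene ID2-AS1.

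ID1 stood at 62.3, 70.8 and 70.6 FPKM across controls 1 to 3 against 38.8, 41.3 and 38.4 FPKM across the knockout-labelled libraries. The lowest control library was still far above the highest knockout-labelled library. The means of 67.9 ± 4.88 and 39.5 ± 1.58 FPKM stood in a ratio of 0.582. The log2 difference of -0.77 (SE 0.058, limma adjusted p = 8.17e-05) was the largest of the 9 tested genes, and 3.53% of all tested genes had a lower one. ID1 (ENSG00000125968) spans 31605283 to 31606515 on chromosome 20 (plus strand).

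ID3 stood at 37.8, 37.6 and 37.2 FPKM across the controls against 29.2, 30.2 and 26.8 FPKM across the knockout-labelled libraries. The groups did not overlap, and the knockout-labelled libraries varied more (SD 1.7 FPKM) than the controls (SD 0.339 FPKM). The difference in log2(FPKM + 1) was -0.38 (SE 0.047, limma adjusted p = 0.000644), a smaller fall than those of ID1 and ID2 in point estimate. Whether the falls of ID1, ID2 and ID3 differ from each other was not tested. ID3 (ENSG00000117318) spans 23557918 to 23559794 on chromosome 1 (minus strand).

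Summed over ID1, ID2 and ID3, the level was 245, 256 and 255 FPKM across controls 1 to 3 against 159, 163 and 153 FPKM across the knockout-labelled libraries. The summed mean went from 252 ± 5.66 to 158 ± 4.64 FPKM, a ratio of 0.628, given here as a description with no test of its own. ID2 made up 58.2% ± 0.916 of the sum in the controls and 56.9% ± 0.73 in the knockout-labelled libraries. The E proteins that ID proteins bind are encoded by TCF3, TCF4 and TCF12. TCF3 stood between 51.1 and 61.4 FPKM over the 6 libraries and TCF12 between 15.5 and 16.6 FPKM, and 0 of these 2 tested genes passed (limma; 0 also at an unadjusted p of 0.05 and 0 in each of 15 alternatives). The 95% interval of the log2 difference was -0.16 to 0.17 for TCF3 and -0.094 to 0.098 for TCF12. TCF4 was at most 0.223 FPKM in any library and was not tested. The ratio of the ID sum to the sum of TCF3 and TCF12 was 3.49 ± 0.19 in the controls and 2.19 ± 0.146 in the knockout-labelled libraries, and the groups did not overlap.

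**Figure D2:**
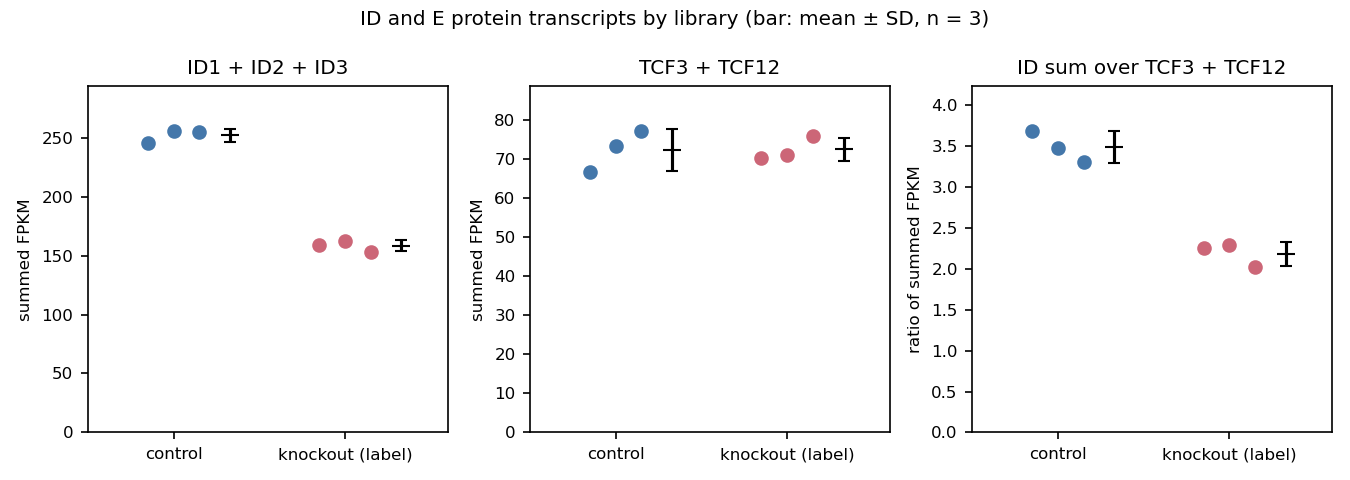
Summed FPKM of ID1, ID2 and ID3 (left), summed FPKM of TCF3 and TCF12 (middle) and their ratio (right) in each library, on axes that start at 0, with mean ± SD of 3 libraries. The ID sum lies between 245 and 256 FPKM across the controls against a range of 153 to 163 FPKM across the knockout-labelled libraries, while the E protein sums of the groups overlap.

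BAMBI encodes a membrane pseudoreceptor that resembles a type I receptor but lacks the kinase and dampens TGF-beta and BMP signals. It stood at 20.3, 19.6 and 20.6 FPKM across the controls against 14.2, 14.9 and 13.5 FPKM across the knockout-labelled libraries. The groups did not overlap, with means of 20.1 ± 0.538 and 14.2 ± 0.696 FPKM. The difference in log2(FPKM + 1) was -0.48 (SE 0.047, limma adjusted p = 0.000236), and 10.5% of all tested genes had a lower one. BAMBI (ENSG00000095739) spans 28677342 to 28682939 on chromosome 10 (plus strand).

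SMAD6, the inhibitory SMAD that acts mainly on the BMP branch, was low, at 0.778, 0.718 and 0.583 FPKM across the controls against 0.229, 0.437 and 0.247 FPKM across the knockout-labelled libraries. The groups did not overlap, but its mean of 0.499 FPKM over the 6 libraries left it below the filter. Without a filter the log2 difference was -0.38 (limma adjusted p = 0.0108), and with libraries rescaled to the same total, which lifts SMAD6 above the filter, it was -0.62 (limma adjusted p = 0.0172). Both differences were taken after adding 1 to each value, which understates changes of so low a gene. The ratio of its mean FPKM, knockout-labelled over control, was 0.439. SMAD6 (ENSG00000137834) spans 66702228 to 66782848 on chromosome 15 (plus strand). SMAD7, the other inhibitory SMAD, which acts on both branches, stood at 6.47, 7.63 and 7.25 FPKM across the controls against 6.45, 6.16 and 6.99 FPKM across the knockout-labelled libraries. These values overlap between groups. The log2 difference was -0.11 (95% interval -0.28 to 0.064, limma adjusted p = 0.247). SMAD7 (ENSG00000101665) spans 48919853 to 48952052 on chromosome 18 (minus strand).

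BMP4, the most abundant ligand gene of those described here, stood at 119.6, 123 and 125 FPKM across the controls against 149.6, 149 and 139 FPKM across the knockout-labelled libraries. All 3 knockout-labelled libraries were above all controls, with means of 123 ± 2.81 and 146 ± 5.91 FPKM. The difference in log2(FPKM + 1) was 0.25 (SE 0.037, limma adjusted p = 0.00148), and 82% of tested genes had a lower one. BMP4 (ENSG00000125378) spans 53949736 to 53958761 on chromosome 14 (minus strand). The BMP ligand gene was thus higher in the same libraries in which ID1, ID2 and ID3 were lower.

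TGFB1, which encodes the founding TGF-beta ligand, stood at 20.03, 20.2 and 21.6 FPKM across the controls against 24.1, 23.8 and 21.9 FPKM across the knockout-labelled libraries. The highest control and the lowest knockout-labelled library were close neighbours, 21.6 and 21.9 FPKM. The log2 difference of 0.17 (SE 0.052, limma adjusted p = 0.0287) lost its call in 4 of the 6 fits that left out a library: without control library 1 (0.15, adjusted p = 0.085) or 2 (0.15, adjusted p = 0.0833) and without knockout library 1 (0.14, adjusted p = 0.0894) or 2 (0.15, adjusted p = 0.0818). Once a trend over GC content and transcript length was removed from each library, the difference was 0.32 (adjusted p = 0.00131). TGFB1 (ENSG00000105329) spans 41301587 to 41353911 on chromosome 19 (minus strand), and 215 bp of its exons overlap HNRNPUL1 on the other strand, which is also in the table. Whether counting used strand is not stated in those sources that were used here.

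SMAD3, which carries the TGF-beta and activin signal, stood at 7.19, 7.1 and 7.62 FPKM across the controls against 9.16, 8.65 and 8.72 FPKM across the knockout-labelled libraries. The groups did not overlap. The difference in log2(FPKM + 1) was 0.24 (SE 0.05, limma adjusted p = 0.00532), and it became 0.13 (adjusted p = 0.053) with that trend removed. SMAD3 (ENSG00000166949) spans 67063763 to 67195195 on chromosome 15 (plus strand), and 182 bp of its exons overlap an antisense gene. SMAD4, the shared partner of both branches, varied widely, at 18.7, 14.6 and 16.1 FPKM across the controls against 15.2, 23.3 and 21.7 FPKM across the knockout-labelled libraries. The knockout-labelled libraries were split, with library 1 inside the control range and libraries 2 and 3 above it. The difference in log2(FPKM + 1) was 0.26 (SE 0.158, limma adjusted p = 0.209), and without knockout library 1 it was 0.43 (adjusted p = 0.0156), without knockout library 2 it was 0.14, and without the GC and length trend it was 0.11 (adjusted p = 0.577). SMAD4 (ENSG00000141646) spans 51028394 to 51085045 on chromosome 18 (plus strand), and 967 of its 13123 exon bp overlap AC091551.1 on the same strand. Its values may depend on how reads were divided there, which was not tested.

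**Figure D3:**
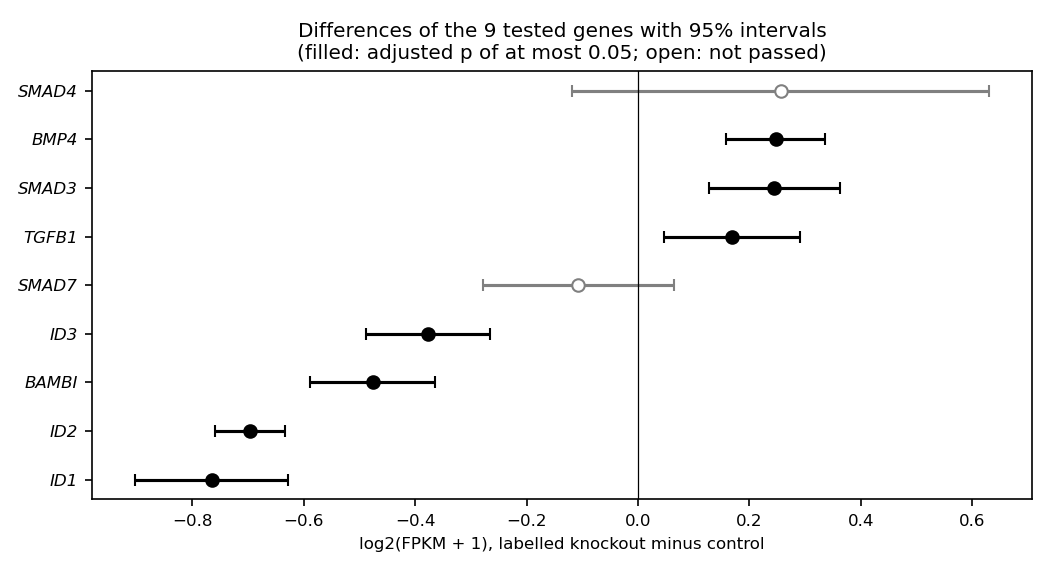
Log2(FPKM + 1) difference of the 9 tested genes, knockout-labelled libraries minus controls, with 95% intervals from the limma fit. Filled points passed at an adjusted p of 0.05 and open points did not. ID1 lies lowest at -0.77 and SMAD4 highest at 0.26 with the widest interval.

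FPKM are scaled per length, so levels can be ranked between genes, though this scaling leaves effects of GC content in place. The rank of SMAD4 may also depend on how reads over its shared exons were divided. In the controls the order from the top was ID2, BMP4, ID1, ID3, TGFB1, BAMBI, SMAD4, SMAD3, SMAD7 and SMAD6. The neighbours TGFB1 and BAMBI, and SMAD3 and SMAD7, overlapped there and cannot be ordered. In the knockout-labelled libraries BMP4 came first, ahead of ID2, at 146 against 90.03 FPKM, with no overlap. There TGFB1 and SMAD4 overlapped, and SMAD4 stood above BAMBI. Over all 6 libraries BMP4 was more abundant than 96.3% of tested genes and ID2 than 95.4%, whereas SMAD3 exceeded 36% and SMAD7 exceeded 30.9%.

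Likeness was measured as the Euclidean distance between log2(FPKM + 1) profiles over the 6 libraries, each less its own mean. The 4 genes nearest to ID1 were KLHDC2, GGT6, RHBDL1 and TMSB4X, at distances of 0.101 to 0.117. TMSB4X, which encodes the actin-binding peptide thymosin beta 4, stood between 287 and 320.4 FPKM across the controls against a range of 183 to 188 FPKM across the knockout-labelled libraries. The 4 nearest to BMP4 were MYCL, MREG, USP4 and CEP170B, at distances of 0.0352 to 0.0472. MYCL averaged 1.42 FPKM, a level at which log2(FPKM + 1) understates changes. Its ratio of means was 1.36, against 1.19 for BMP4. The measure includes the group difference itself.

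The rest of the pathway was read from lists of textbook genes, and genes without a row to read were not analysed here. Log2 differences are those of log2(FPKM + 1), which understates changes of low genes. The counts are to be read against the 54.5% of all tested genes that passed, 25.3% higher and 29.2% lower, and no list was tested as a set. Of 10 receptor and co-receptor genes tested, out of 16 listed, 0 rose and 3 fell. ACVR1, a BMP and activin type I receptor, stood at 6.06, 5.37 and 6.07 FPKM across the controls against 3.94, 3.99 and 4.01 FPKM across the knockout-labelled libraries, a log2 difference of -0.45 (limma adjusted p = 0.000904). RGMB, a BMP co-receptor, fell by 0.49 on the log2 scale. The activin receptor gene ACVR2A had a difference of -0.24 (limma adjusted p = 0.0474), a call that 9 of 14 alternatives did not keep, among them those without control library 1 (-0.17) or 3 (-0.25) and without knockout library 1 (-0.26), 2 (-0.25) or 3 (-0.22). The type I receptor genes BMPR1A (0.14) and TGFBR1 (-0.016) did not pass. BMPR1A stood between 11.1 and 14.3 FPKM over the 6 libraries and TGFBR1 between 7.97 and 9.06 FPKM.

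Among the other SMAD genes 1 of 4 rose and 1 fell. SMAD5, a BMP-branch SMAD, stood at 13.7, 14.5 and 13.1 FPKM across the controls against 17.8, 17.6 and 19.2 FPKM across the knockout-labelled libraries, a log2 difference of 0.38 (limma adjusted p = 0.00103). SMAD2, the TGF-beta-branch partner of SMAD3, stood at 23.1, 21.9 and 24.5 FPKM across the controls against 20.2, 19.1 and 17.2 FPKM across the knockout-labelled libraries, a log2 difference of -0.29 (limma adjusted p = 0.00953). SMAD2 and SMAD3 thus differed in opposite directions. SMAD1 (0.035) and SMAD9 (-0.25) did not pass, and SMAD9 averaged 1.11 FPKM and passed with no filter, with no variance trend and once GC and length trends were removed (-0.37, adjusted p = 0.0117).

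Few other ligand genes could be analysed here. Of 2 tested TGF-beta and activin ligand genes out of 12 listed, GDF11 rose by 0.50 in log2(FPKM + 1), with a ratio of means of 1.61. TGFB3 did not pass (-0.21), though it did without control library 3 (-0.32, limma adjusted p = 0.0327). Of 2 tested BMP and GDF ligand genes out of 15 listed, both fell: AMH by 0.92 and BMP8B by 0.31 on the log2 scale. BMP8B did not keep its call under quantile normalization (-0.18, adjusted p = 0.0739), and AMH became -0.51 (adjusted p = 0.00193) with the GC and length trend removed. AMH encodes anti-Mullerian hormone, which signals through BMP-branch SMADs. BMP2 and BMP7 were not analysed here.

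Of 11 tested genes for secreted antagonists, ligand-processing and latency proteins, out of 26 listed, 6 fell and 1 rose. Of all tested genes 29.2% fell and 25.3% rose. The median log2 difference of the 11 was -0.31. FURIN, the protease that cleaves TGF-beta and BMP precursors, stood at 36.1, 37.8 and 36.7 FPKM across the controls against 20.2, 20.5 and 20.4 FPKM across the knockout-labelled libraries. Its groups lay far apart (log2 difference -0.82, SE 0.034, limma adjusted p = 8.09e-06). LTBP4 fell by 0.71 and LTBP1 by 0.59 in log2(FPKM + 1), with ratios of means of 0.515 and 0.561. Both encode proteins that hold latent TGF-beta in the matrix. THBS1, which encodes thrombospondin 1, an activator of latent TGF-beta, rose from 5.71, 5.22 and 5.19 FPKM to 9.39, 9.2 and 9.69 FPKM (log2 difference 0.71, limma adjusted p = 7.91e-05). The antagonist gene NBL1 (0.085) and the BMP-binding gene TWSG1 (0.082) did not pass, but NBL1 did with the GC and length trend removed (0.30, adjusted p = 0.00146), and the antagonist genes NOG, CHRD and GREM1 were not analysed here.

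Of 20 tested intracellular regulators, 9 rose and 2 fell, where 25.3% of all tested genes rose and 29.2% fell. The median log2 difference of the 20 was 0.14. SKI, a co-repressor of SMAD complexes, rose by 0.38, and the deubiquitinase gene USP15 by 0.41 on the log2 scale. SKIL, the SKI relative that TGF-beta induces, fell by 0.55 (0.84 with a pseudocount of 0.1) and the SMAD co-repressor gene TGIF1 by 0.36. The ubiquitin ligase gene STUB1 (-0.094) and the deubiquitinase gene USP9X (0.18) did not pass. USP9X passed without knockout library 1 (0.26, adjusted p = 0.0287), and STUB1 turned to 0.16 (adjusted p = 0.0481) with the GC and length trend removed.

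Textbook targets were split. Of 11 tested TGF-beta targets out of 20 listed, 2 rose and 2 fell. KLF10, a TGF-beta-inducible repressor gene, rose by 0.33 on the log2 scale. JUNB had a difference of -0.29 that became -0.068 once the GC and length trend was removed, without a call (adjusted p = 0.179). NEDD9 differed by -0.22 (limma adjusted p = 0.0426), and 8 of 14 alternatives did not keep that call, among them those without control library 1 (-0.23), 2 (-0.22) or 3 (-0.20) and without knockout library 2 (-0.21) or 3 (-0.19). The cell cycle inhibitor gene CDKN1A (-0.092) and BHLHE40 (-0.057) did not pass. Of 6 tested BMP targets other than ID1, ID2 and ID3, out of 13 listed, 3 rose and 1 fell. MSX1, a homeobox gene, stood at 5.25, 5.74 and 6.22 FPKM across the controls against 12.2, 11.01 and 11.5 FPKM across the knockout-labelled libraries (log2 difference 0.90, limma adjusted p = 8.05e-05). The homeobox gene DLX1 rose by 0.42 and GATA2 by 0.33 on the log2 scale. RUNX2 differed by -0.34 (limma adjusted p = 0.0375), and 7 of 14 alternatives did not keep that call, among them those without control library 1 (-0.33) or 2 (-0.26) and without knockout library 1 (-0.34) or 2 (-0.25). MSX2 (0.12) and DLX2 (0.16) did not pass, though MSX2 did under quantile normalization (0.17, adjusted p = 0.0392). Genes described as BMP targets differed in both directions, with ID1, ID2 and ID3 lower and MSX1, DLX1 and GATA2 higher. All tested genes did so too, with 25.3% higher and 29.2% lower.

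**Figure D4:**
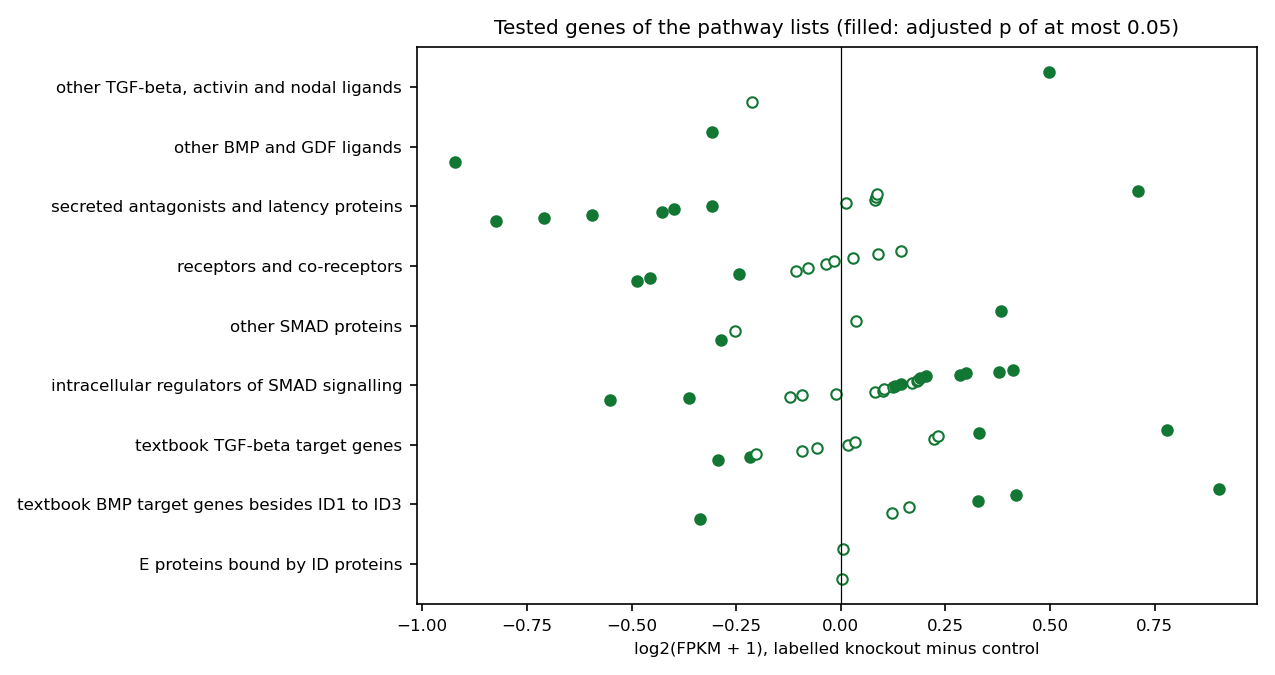
Log2(FPKM + 1) difference of every tested gene of the 9 pathway lists, knockout-labelled libraries minus controls, 1 point per gene, filled where the adjusted p was at most 0.05. Of 11 secreted and latency proteins 6 fell and 1 rose, and of 20 intracellular regulators 9 rose and 2 fell. Of all tested genes 25.3% rose and 29.2% fell.

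The direction of each of the 9 tested genes among the 10 was the same under all 15 alternatives. Changes of filter, variance model or design leave each difference as it was, so a direction could turn only under the others. ID1 ranged from -0.83 to -0.63, ID2 from -0.71 to -0.65, ID3 from -0.41 to -0.26, BAMBI from -0.51 to -0.41 and BMP4 from 0.23 to 0.31, and these 5 genes passed in every alternative. The smallest falls of ID1, ID2, ID3 and BAMBI, and the largest rise of BMP4, came with the GC and length trend removed. ID1, ID2 and ID3 have short transcripts (1233, 2041 and 1251 bp, against a median of 3349 bp) with GC content of 58.6%, 53.3% and 57.2% (median 48.8%).

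**Figure D5:**
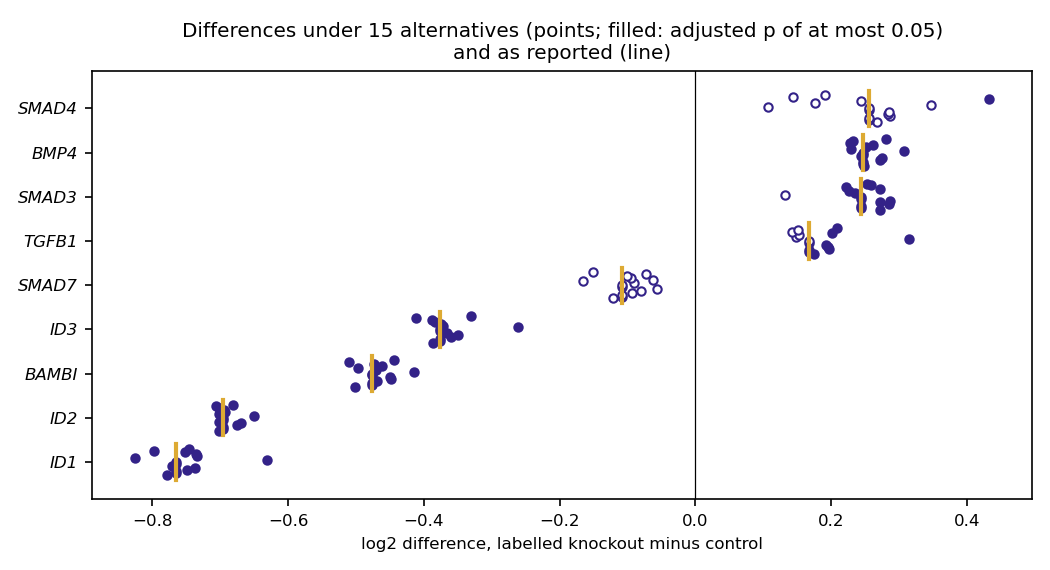
Log2 difference of the 9 tested genes under each of 15 alternatives (points, filled where the adjusted p was at most 0.05) and as reported (line). The points of ID1, ID2, ID3, BAMBI and BMP4 are all filled, and those of TGFB1, SMAD3 and SMAD4 are mixed.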

How the data were processed

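RNA of 6 HCT15 libraries, 3 per group, was sequenced as paired-end reads of 150 bp, per the labels' protocols. The authors deposited FPKM, per the file headers; HISAT2 2.2.1 and StringTie 2.0.4 with hg38 were used, per the submitters' processing notes. Settings, annotation, strand use and row filter: not given in the sources used here. Coordinates are from GENCODE 29 on GRCh38.

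FPKM are not counts. limma 3.58.1 in R 4.3.3 was fitted to log2(FPKM + 1) of genes that averaged at least 1 FPKM, with 2 groups, no covariates and variances following a trend over the mean, and 2-sided p-values were adjusted by Benjamini and Hochberg over 11451 genes. This scale understates changes of low genes. Ratios of values below 0.5 FPKM between libraries showed no steps of whole reads (at most 0.93% in any window 0.1% wide), so depth is unknown and precision rests on replicate spread. Tested on simulated data of 11451 genes in 3 against 3 libraries, 78 of 100 genes changed 1.5-fold, 95 of 100 changed 2-fold and 12 of 11251 unchanged genes were called. These folds were set on FPKM + 1, so low genes changed by larger folds in FPKM. Far fewer genes were changed there than the 54.5% that passed here, so these rates do not carry over to the data.

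The members and lists were chosen with earlier results of these data known. Named were all members, RBM15, and from each pathway list up to 4 passing genes with the largest difference and up to 2 abundant genes that did not pass; genes named as not analysed, EPCAM, VIL1, CDH17, CDX2, KRT8, KRT18, CD68 and other markers stand outside that rule and were chosen after their values were seen, as was TCF4. A gene that this rule would name is not reported here. Alternatives changed the pseudocount (0.1), the filter (none, or 5 FPKM), the scaling (libraries rescaled to 1 common sum, here called the TPM scale; centred on the median; or quantile-normalized), the variance model (without trend), the design (replicate number as a block) and the libraries (each left out in turn). Removal of a GC and length trend (splines with 5 degrees of freedom, GENCODE transcripts, 97.5% of tested genes) was added after the data were seen. Python 3.11.15 with numpy 2.4.6, pandas 2.3.3 and matplotlib 3.10.9 made the tables and plots.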

Additional observations from a re-analysis of the deposited data

How the results depend on the processing

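Of 150 log2 differences of the 9 tested members and RBM15 under alternatives, 143 kept their direction and their side of the threshold, and of 195 counts of passing genes 186 stayed within 1.5 times the reported count. Under changes of filter, variance model or design the difference itself cannot move, and only its adjusted p can. The calls lost were TGFB1 with a replicate block (0.17, adjusted p = 0.0722) and in 4 fits without a library (0.14 to 0.15), and SMAD3 with the GC and length trend removed (0.13); SMAD4 gained a call without knockout library 1 (0.43). Without single libraries TGFB1 ranged from 0.14 to 0.21 and SMAD4 from 0.14 to 0.43; once GC and length trends were removed TGFB1 was 0.32 and SMAD4 0.11. The cause was not tested. The replicate block changed no other member's call, and among the other named genes it lost ACVR2A, NEDD9 and RUNX2 (adjusted p = 0.0683, 0.0919 and 0.0873); 6 to 8 members passed (7 as reported), depending on the setting. With a filter at 5 FPKM fewer genes were tested, and the passing genes numbered 0 for TGF-beta and activin ligands (1 as reported), 1 for BMP and GDF ligands (2), 1 for receptors (3), 4 for secreted and latency proteins (7), 2 for TGF-beta targets (4) and 2 for BMP targets (4). Quantile normalization left 1 BMP and GDF ligand, removal of the GC and length trend gave 5 receptors, and leaving out single libraries gave 1 to 2 TGF-beta and activin ligands.

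The genes whose sign turned had not passed: BMPR1A (-0.011), STUB1 (0.16, with a call) and TCF12 (-0.12) with the GC and length trend removed, TGFBR1 on the TPM scale (0.0060), after median centring (0.011) and under quantile normalization (0.025), and BHLHE40 under quantile normalization (0.0081). Without single libraries TGFBR1 ranged from -0.0606 to 0.022, BHLHE40 from -0.111 to 0.0287, TCF3 from -0.0643 to 0.0666 and TCF12 from -0.0152 to 0.0302. Deviations from the group mean correlated at -0.035, -0.037 and 4.54e-05 between same-numbered libraries, and at -0.020 to 0.054 between differently numbered ones. Shared replicate numbers thus showed no shared deviation, but this cannot tell whether libraries were prepared in pairs. Depth is unknown, and precision rests on the replicate spread. Differences that are small against that spread could be missed. SMAD7, with a log2 difference of -0.11 (SE 0.073), did not pass, and a real difference of that size is not excluded.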
